A study of Mus musculus domesticus and Mus musculus domesticus x Mus musculus castaneus and Mus musculus castaneus with 10 samples.

Results

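Genomic imprinting is the expression of a gene from only 1 of its parental copies, in most cases decided by DNA methylation placed in the egg or the sperm. Imprinted genes lie together in clusters, where a differentially methylated control region, and often a long noncoding RNA, sets which copy of several neighbours is used. Many of them regulate growth of the fetus and the placenta, and their marks are known to be lost or altered at times in cultured pluripotent cells. The genes described here are 40 imprinted genes chosen by symbol, of which 15 are known to be expressed from the maternal copy, 24 from the paternal copy, and 1, Gnas, from either copy depending on transcript and tissue. They were matched to a table of 26808 mouse genes, lie on 11 chromosomes, and fall into 9 loci with several genes on the list, which hold 31 of them, and 9 genes that are alone at their locus.

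The study asked how gene regulation diverged between mouse subspecies, using undifferentiated pluripotent stem cells. RNA-seq counts from 2 libraries of the group CAST were used. These were homozygous CAST/EiJ induced pluripotent stem cells, made from embryonic fibroblasts with the reprogramming factors Oct4, Sox2 and Klf4, grown on irradiated mouse embryonic fibroblasts as feeder cells, and depleted of feeders before RNA extraction. The 4 libraries of the 129 embryonic stem cell line and the 4 of the hybrid 129Cas embryonic stem cell line were not analysed here. The values thus describe 1 group of stem cell cultures and no treatment. RNA of feeder cells left after depletion may be among the counts, and the strain of these cells is not given in the sources used here. Because the CAST line is homozygous, its parental copies cannot be told apart by sequence, and the parental copy named for each gene is textbook knowledge that was not measured. A level therefore does not show whether an imprint was kept or lost.

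The libraries held 14460393 counts in replicate 1 and 13728098 in replicate 2, so that 3 counts, the limit that a count of 0 allows, equalled 0.207 and 0.219 counts per 1000000 counts of the library (CPM). The labels give each library its own batch entry and do not say that the libraries came from separate cultures, so batch and replicate cannot be told apart and the spread between them may be technical. With 1 library on each side no p-value was computed. Differences are given as the ratio of replicate 1 to replicate 2 of CPM after TMM scaling plus a pseudocount of 0.5 CPM, which understates the ratio of low genes, and each has an exact 95% interval computed from the counts without the pseudocount. These intervals cover counting error only. In a mixed culture, fewer cells of a type and less RNA per cell cannot be told apart. Of 12 pluripotency markers, 10 were in the table and their summed level was 5404 CPM in replicate 1 and 4149 CPM in replicate 2. Nanog and Dppa5a had no row. The sum includes Pou5f1 (Oct4), Sox2 and Klf4, where any reads from the reprogramming vectors were not told apart from those of the genes themselves. Of 19 fibroblast markers all were in the table, with summed levels of 7092 and 4384 CPM, and S100a4 was at 0 in both libraries. Of 13 markers of differentiated cells all were in the table, with summed levels of 23.9 and 45.0 CPM, and Afp was at 0.

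Several imprinted genes are retrogenes, intronless copies of an X-linked parent gene that were inserted inside another gene. Their reads can be told from those of the parent only where the sequences differ, so stretches of Mcts2 and Zrsr1 are shown beside their parents, 150 coding bases each from the GENCODE transcripts of GRCm38, 5′ to 3′, with capitals marking the bases that differ within a pair. The Mcts2 stretch lies at chr2:152687271-152687420 on the plus strand, in the only coding exon of the gene. Its parent Mcts1 has 6 coding exons and lies on the plus strand at chrX:38600578-38613426.
Mcts2: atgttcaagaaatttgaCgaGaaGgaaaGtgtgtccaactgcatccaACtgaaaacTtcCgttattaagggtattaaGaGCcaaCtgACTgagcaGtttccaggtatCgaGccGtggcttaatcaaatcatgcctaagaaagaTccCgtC
Mcts1: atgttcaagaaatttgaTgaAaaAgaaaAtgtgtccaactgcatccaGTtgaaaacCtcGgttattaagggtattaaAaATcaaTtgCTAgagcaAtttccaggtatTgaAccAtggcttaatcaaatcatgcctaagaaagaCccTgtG
The Zrsr1 stretch lies at chr11:22973391-22973540 on the plus strand. Its parent Zrsr2, on the minus strand at chrX:163935443-163958661, has 11 coding exons.
Zrsr1: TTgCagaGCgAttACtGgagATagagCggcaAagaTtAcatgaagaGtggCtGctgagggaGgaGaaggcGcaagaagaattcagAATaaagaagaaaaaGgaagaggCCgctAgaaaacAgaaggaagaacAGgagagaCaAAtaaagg
Zrsr2: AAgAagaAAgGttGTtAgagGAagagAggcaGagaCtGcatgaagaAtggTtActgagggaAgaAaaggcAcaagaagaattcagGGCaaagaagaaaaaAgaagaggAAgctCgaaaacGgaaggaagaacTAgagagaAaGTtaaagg
The Mcts pair differed at 22 of these 150 bases, and over the whole coding sequence 462 of 543 bases were identical (85.1%). The Zrsr pair differed at 34 of the 150 bases, and over the coding sequences, of 1284 and 1623 bases, 1023 of the 1279 aligned positions that hold a base in both were identical (80.0%). No stretch of 100 bases of a Mcts2 transcript occurred in a transcript of another gene, while 4.94% of those of Zrsr1 occurred in the antisense direction in its host Commd1 and none in Zrsr2.

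Most imprinted genes were detected in the CAST libraries, and the part of feeder cells in their levels was not tested. Of the 40 genes, 38 had a row, and 36 exceeded 3 counts in both libraries. The other two of the 38 were Magel2, a MAGE family gene of the Snrpn-Ube3a locus, with 2 and 0 counts, and Rasgrf1, which encodes a guanine nucleotide exchange factor, with 1 count in each library. At this depth these 2 genes were not detectable above the limit. Airn and Kcnq1ot1, the long noncoding RNAs antisense to Igf2r and Kcnq1, had no row and were not analysed here.

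Summed over the 38 genes, the level was 1999 CPM in replicate 1 and 1905 CPM in replicate 2 (1952 ± 67.0 CPM, SD, n = 2), or 0.200% and 0.190% of all counts. The 15 genes listed as maternally expressed summed to 974 and 827 CPM. The 22 genes in the table listed as paternally expressed summed to 1015 and 1064 CPM. These parental labels were not measured here, and the maternal sum includes Ube3a, known to be expressed from both copies in most cells outside neurons. The difference between libraries in each sum depended on few genes, which were picked after the values were seen. Without Igf2r and Rian the maternal sum was 540.2 and 540.6 CPM. Without Peg10 the paternal sum was 867 and 734 CPM, a larger difference in the opposite direction. The median log2 ratio was 0.04 for the maternal and -0.03 for the paternal genes. The sum was concentrated in few genes. Peg3, Peg10, Igf2r, Mest and Impact held 51.6% of the summed CPM, 9 genes had a mean of at least 100 CPM, 14 lay between 10 and 100 CPM, and 13 were under 10 CPM.

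Compared per kilobase of exon, which allows levels of different genes to be set side by side, the median imprinted gene stood at percentile 46.7 of the 13824 genes that had 10 or more counts over both libraries (the genes tested below). Mest was highest with 40.4 ± 16.5 CPM per kilobase (SD, n = 2), followed by Peg10 with 35.8 ± 19.4, and these neighbours did not differ beyond their spread. Impact with 25.9 ± 1.72, Igf2r with 25.3 ± 7.89, Copg2 with 22.5 ± 0.869 and Mcts2 with 21.1 ± 3.85 CPM per kilobase came next. This order is for the length of all exons. With the length of the longest transcript, Peg3 at 27.6 and 27.5 CPM per kilobase was above Mcts2 at 23.8 and 18.4. At the other end were Usp29 with 0.0624 and Rtl1 with 0.139 CPM per kilobase, at percentiles 0.904 and 4.05. The list thus ran from near the bottom of the expressed genes to percentile 90.3, that of Mest.

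**Figure D1:**
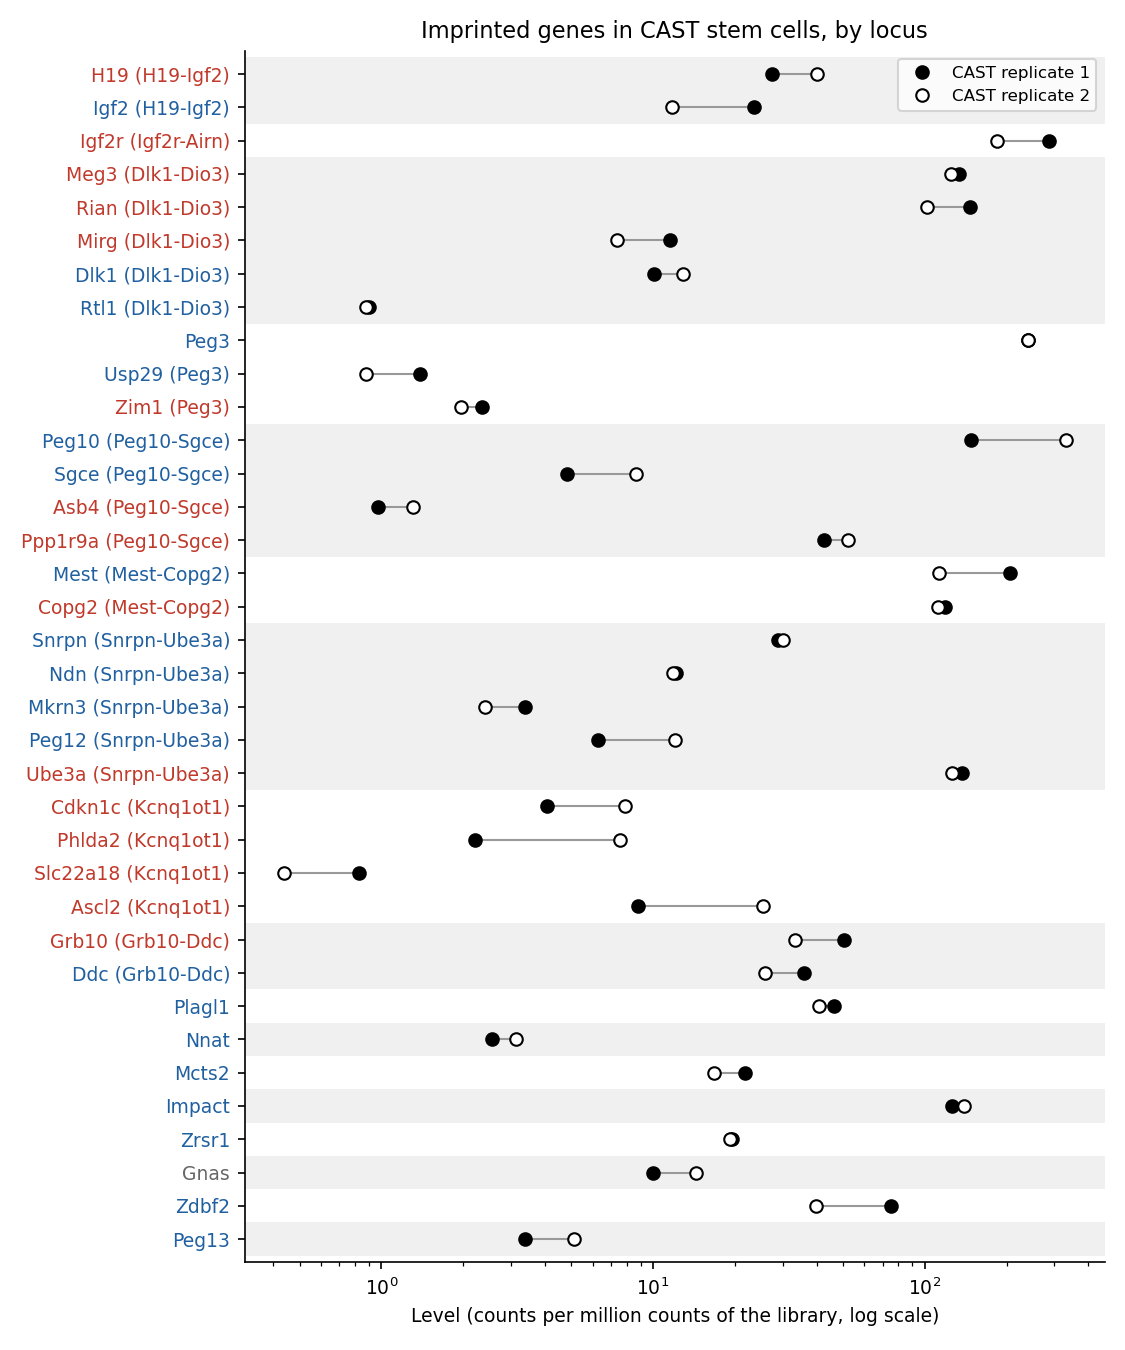
Level of each of the 36 imprinted genes that had 10 counts or more, in CPM on a log axis, with filled circles for CAST replicate 1 and open circles for replicate 2, joined by a line. Genes are grouped by locus, with names in red for maternal, blue for paternal and grey for transcript-dependent expression, and for Peg3 (239.6 and 239.2 CPM) the open circle covers the filled one.

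As a list, the imprinted genes did not lean toward either library. Their median log2 ratio was -0.02, beside 0.00 over all genes tested, with 17 genes higher in replicate 1 and 19 in replicate 2 (scaling by library totals instead put 21 higher in replicate 1), where 50.4% of all genes tested were higher in replicate 1. The median size of the log2 ratio was 0.41 for imprinted genes and 0.31 for all genes. Of the 36 genes, 21 (58.3%) had a counting interval without 1, where 57.1% of all genes tested did. Likewise 11 of 36 were at least 1.5-fold apart, beside 24.3% of all genes. At least 2-fold apart were 3 of 36 (8.33%), beside 9.11% of all genes tested. These shares were near the background, so the counts alone do not set imprinted genes apart from other genes. The 3 genes were Peg10, Ascl2 and Phlda2, and each was higher in replicate 2, where 4.13% of all genes were at least 2-fold higher. None was at least 2-fold higher in replicate 1, beside 4.98% of all genes.

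**Figure D2:**
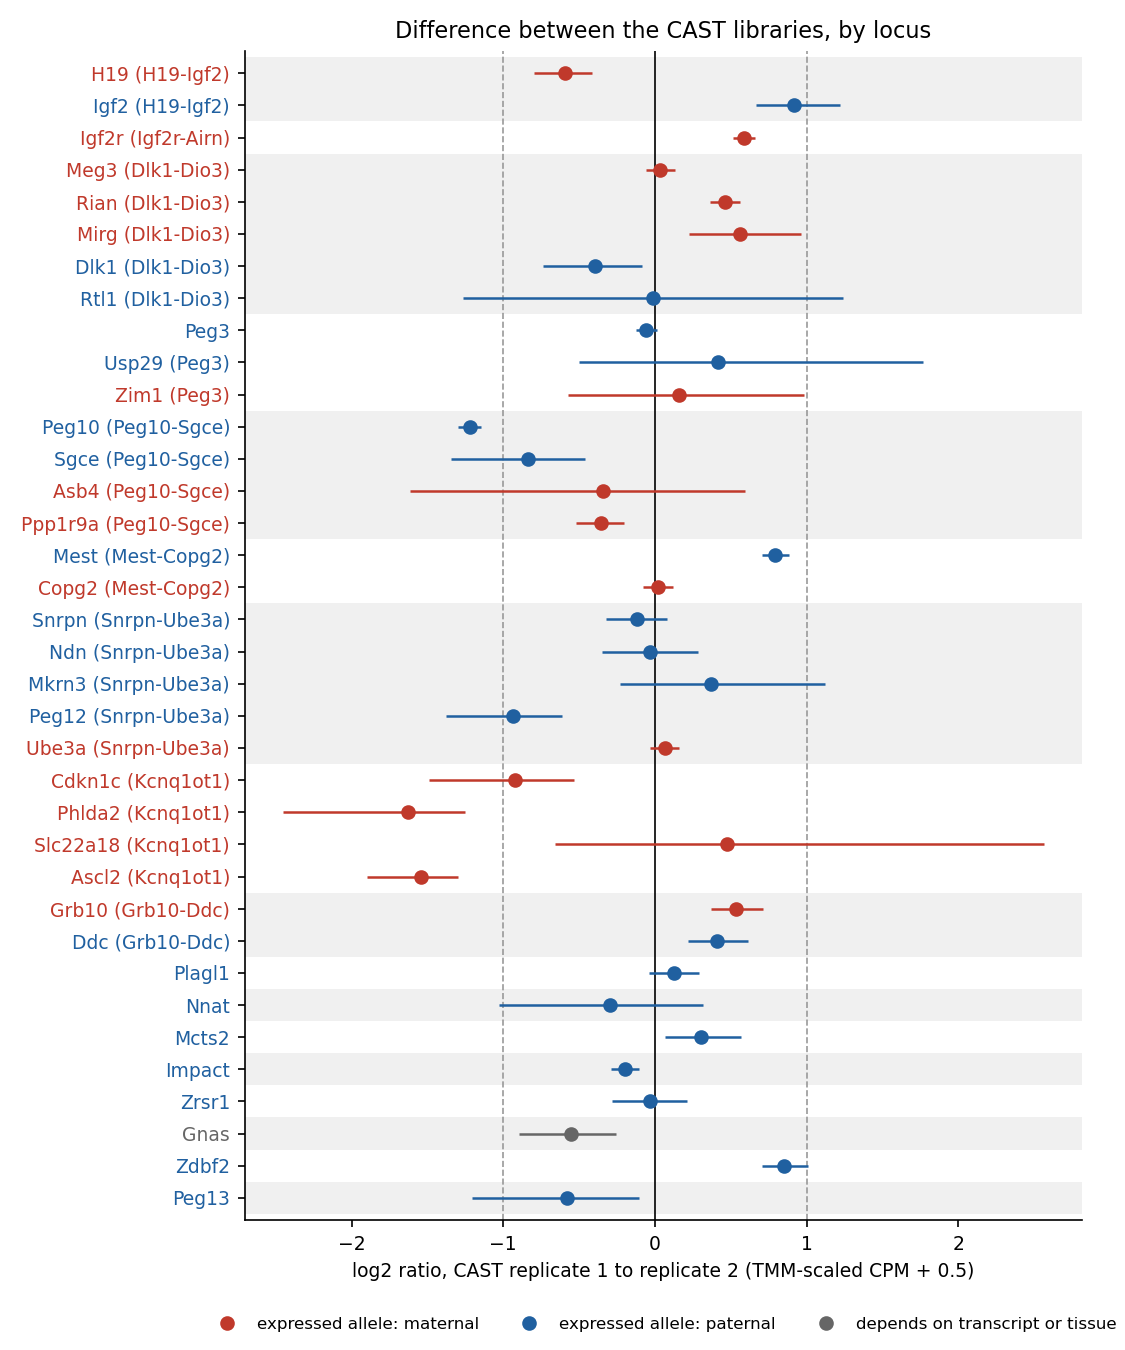
Log2 ratio of CAST replicate 1 to replicate 2 for the 36 imprinted genes, by locus, with the exact 95% counting interval as a line and dashed lines at 2-fold. Peg10, Ascl2 and Phlda2 lie left of the dashed line at -1, at -1.22, -1.54 and -1.63, and no gene lies right of the line at 1.

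The genes of the Kcnq1ot1 locus on chromosome 7 act on growth, mainly of the placenta, and most are known to be silenced on the paternal copy through the Kcnq1ot1 RNA. Phlda2 (ENSMUSG00000010760, chr7:143501545-143503150), a pleckstrin homology protein that limits placental growth, had 32 counts in replicate 1 and 104 in replicate 2, or 2.21 and 7.58 CPM. It was 3.09-fold higher in replicate 2 (interval 2.38 to 5.48). Ascl2 (ENSMUSG00000009248, chr7:142966829-142969264), a basic helix-loop-helix factor needed by trophoblast cells, had 127 and 350 counts, or 8.78 and 25.5 CPM. It was 2.91-fold higher in replicate 2 (interval 2.46 to 3.74). Cdkn1c (chr7:143458339-143461050), which encodes the cell cycle inhibitor p57, had 4.08 and 7.87 CPM and was 1.90-fold higher in replicate 2 (interval 1.45 to 2.81), although 30.7% of its exonic bases overlap an antisense gene whose reads could be counted with it where counting ignores strand. All 3 genes were thus higher in replicate 2 by more than counting error, as were 28.5% of all genes tested. Slc22a18, a solute carrier gene, had 12 and 6 counts, and its interval for replicate 1 over replicate 2 ran from 0.633 to 5.92, so no difference was detectable at this depth. The 4 genes summed to 15.9 CPM in replicate 1 and 41.4 CPM in replicate 2. Kcnq1 itself, inside which Kcnq1ot1 lies, had 1 and 0 counts.

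Some markers of differentiated cells were higher in the same library. Of the 8 such markers that had 10 counts or more, 6 were higher in replicate 2, beside 49.6% of all genes tested, with a median log2 ratio of -0.90. Hand1, a factor of trophoblast and mesoderm, had 4 and 51 counts, and Gata6, a factor of primitive endoderm, had 10 and 99. The mesoderm gene T had 113 and 217 counts. The neuronal factor gene Neurod1, with 59 and 31 counts, and the endoderm factor gene Sox17, with 45 and 37, were the other two of the 8, both with a higher ratio in replicate 1. Trophoblast is also marked by Cdx2 and Elf5, which had 3 and 3 and 1 and 0 counts, at or under the limit in both libraries. The part of differentiated cells in the level of Ascl2, Phlda2 and Cdkn1c was not tested.

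At the Peg10-Sgce locus on chromosome 6 all 4 genes had a higher value in replicate 2, beside 49.6% of all genes tested. Their sum was 196 and 392.5 CPM, and without Peg10 it was 48.3 and 62.3 CPM. Peg10 (ENSMUSG00000092035, chr6:4747306-4760517, plus strand) is a paternally expressed gene derived from a retrotransposon and required for the placenta. It had 2134 counts in replicate 1 and 4533 in replicate 2, or 148 and 330.2 CPM. It was 2.33-fold higher in replicate 2 (interval 2.21 to 2.46), and this ratio had a larger size than that of 94.7% of all genes tested. Sgce, which encodes epsilon-sarcoglycan, starts next to Peg10 on the opposite strand and is also paternally expressed. Its levels were 4.84 and 8.67 CPM, 1.78-fold higher in replicate 2 (interval 1.38 to 2.54). These neighbours thus differed between the libraries in the same direction at very unequal levels. Per kilobase the level of Peg10 was 48.5 times that of Sgce in replicate 1 and 60.6 times in replicate 2, or 20.2 and 25.2 times with the length of the longest transcript. The maternally expressed Ppp1r9a, encoding the phosphatase-binding protein neurabin, had 42.5 and 52.3 CPM, 1.28-fold higher in replicate 2 (interval 1.15 to 1.43). Asb4, a SOCS box gene, had 14 and 18 counts, with an interval that included 1.

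H19 and Igf2 share enhancers on chromosome 7 and are known for reciprocal imprinting. H19 (chr7:142575529-142578143), a maternally expressed long noncoding RNA, had 27.5 CPM in replicate 1 and 40.1 CPM in replicate 2. It was 1.51-fold higher in replicate 2 (interval 1.33 to 1.73). Igf2 (chr7:142650766-142666816), the paternally expressed fetal growth factor, had 23.5 and 11.7 CPM and was 1.89-fold higher in replicate 1 (interval 1.59 to 2.34). The neighbours thus differed in opposite directions, while their sum was nearly the same, at 51.0 and 51.8 CPM. Per kilobase the ratio of H19 to Igf2 was 2.72 in replicate 1 and 7.95 in replicate 2. The Igf2 value is uncertain, since 62.8% of its exonic bases are shared on the same strand with Gm49394. Igf2r, the maternally expressed receptor that clears Igf2 from the cell surface, lies on chromosome 17 and had 288 and 184 CPM. Its log2 ratio was 0.59 (interval of the ratio 1.43 to 1.58), in the same direction as that of Igf2.

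The Dlk1-Dio3 locus on chromosome 12 carries maternally expressed noncoding RNAs, which have been studied as a mark of fully reprogrammed mouse stem cells, and paternally expressed protein genes. Its noncoding RNAs were detected in both libraries, and per kilobase Meg3, Rian and Mirg stood at percentiles 57.6, 56.6 and 27.5 of all genes tested. The state of reprogramming and the part of feeder cells in their levels were not tested. These levels depend on the transcript taken, since Rian had 8.03 and 5.60 CPM per kilobase over all exons and 18.1 and 12.6 over its longest transcript, and Mirg 1.58 and 1.01 against 3.02 and 1.92. Meg3 (chr12:109541001-109571726) had 133 CPM in replicate 1 and 125 CPM in replicate 2, a log2 ratio of 0.04 whose interval included 0. Rian, a host of C/D small nucleolar RNAs, had 146 and 102 CPM and was 1.38-fold higher in replicate 1 (interval 1.29 to 1.47). Mirg, a host of microRNAs, had 11.5 and 7.36 CPM and was 1.48-fold higher in replicate 1 (interval 1.17 to 1.95). Meg3 was thus at the same level within counting error in both libraries, while the RNAs downstream of it were lower in replicate 2. Of the paternally expressed genes, Dlk1, which encodes a Notch ligand-like protein, had 10.1 and 12.9 CPM, 1.31-fold higher in replicate 2 (interval 1.06 to 1.67). Rtl1, a retrotransposon-derived gene needed in the placenta, had 13 and 12 counts. Per kilobase Meg3 stood at 4.13 and 3.02 times the level of Dlk1, and at 52.1 and 50.1 times that of Rtl1. The libraries were made from RNA selected for poly(A) tails, which sets how well noncoding RNAs and their unspliced forms are recovered.

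The Peg3 locus on chromosome 7 was nearly level between the libraries, at 243 and 242 CPM in sum. Peg3 (chr7:6703892-6730431), a paternally expressed zinc finger gene linked to maternal behaviour and growth, had 239.6 and 239.2 CPM, with an interval for replicate 1 over replicate 2 of 0.916 to 1.01. Usp29, a ubiquitin peptidase gene that starts beside Peg3 on the opposite strand, had only 20 and 12 counts. Zim1, a maternally expressed zinc finger gene, had 34 and 27 counts. The intervals of both included 1. Peg3 thus stood far above its neighbours, at 235 and 371 times the level of Usp29 per kilobase and 61.8 and 73.8 times that of Zim1. With the length of the longest transcript the ratio to Usp29 was 150.3 and 237 times.

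Mest and Copg2 lie tail to tail on chromosome 6 and overlap at their ends. Mest (chr6:30723547-30748465), the paternally expressed gene also called Peg1, which encodes a protein with a hydrolase fold, had 205 CPM in replicate 1 and 113 CPM in replicate 2. It was 1.74-fold higher in replicate 1 (interval 1.63 to 1.85). Copg2, a coatomer subunit gene, had 118 and 112 CPM, and its interval of 0.946 to 1.09 included 1. Only Mest thus differed beyond counting error at this locus. Of their exonic bases, 23.1% of Mest and 17.8% of Copg2 overlap on opposite strands, so some reads of each may stand under the other where counting ignores strand.

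The Snrpn-Ube3a locus on chromosome 7 corresponds to the human region of Prader-Willi and Angelman syndromes. Ube3a, a ubiquitin ligase gene that is maternally expressed in neurons and known to be expressed from both copies in most other cells, had 137 and 126 CPM. Snrpn, encoding a spliceosomal protein, had 28.8 and 30.0 CPM, and Ndn, encoding the MAGE family protein necdin, had 12.1 and 11.9 CPM. Mkrn3, a makorin ubiquitin ligase gene, had 3.39 and 2.40 CPM. The intervals of these 4 genes all included 1. Peg12, a regulator of the Gsk3 kinase, had 6.29 and 12.0 CPM and was the exception, 1.92-fold higher in replicate 2 (interval 1.53 to 2.60). Per kilobase Snrpn was at 4.07 and 4.32 times the level of Ndn, and Magel2 beside them was at or under the limit. Snrpn shares 27.3% of its exonic bases on the same strand with Snurf and Gm38393, and 27.3% of those of Ube3a lie opposite antisense transcripts such as Snhg14.

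Both genes of the Grb10-Ddc locus on chromosome 11 were higher in replicate 1 by more than counting error, as were 28.6% of all genes tested. Grb10, an adaptor that restrains insulin and growth factor receptors and is maternally expressed in most tissues, had 50.6 and 33.4 CPM, 1.45-fold higher (interval 1.29 to 1.64). Ddc, which encodes the aromatic amino acid decarboxylase, had 35.8 and 25.8 CPM, 1.33-fold higher (interval 1.16 to 1.53).

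Of the genes alone at their locus, Zdbf2 on chromosome 1, a paternally expressed zinc finger gene, had 75.0 CPM in replicate 1 and 39.8 CPM in replicate 2. It was 1.80-fold higher in replicate 1 (interval 1.63 to 2.01). Impact, an inhibitor of the kinase Gcn2, had 126 and 139 CPM, and was 1.14-fold higher in replicate 2 (interval 1.07 to 1.22). The growth regulator Plagl1, a zinc finger transcription factor, had 46.5 and 40.9 CPM, with an interval of 0.974 to 1.22. Plagl1 thus did not differ detectably, and Impact did so by little. Gnas, encoding a G protein alpha subunit, had 10.03 and 14.4 CPM and was 1.47-fold higher in replicate 2 (interval 1.197 to 1.86), with 22.0% of its exonic bases opposite Nespas and Gm20721.

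Mcts2, Zrsr1, Peg13 and Nnat, also alone at their locus, each lie within a host gene. Mcts2, the translation factor retrogene shown above, had 21.7 and 16.8 CPM, 1.24-fold higher in replicate 1 (interval 1.05 to 1.48). Per kilobase it stood at 23.8 and 18.4 CPM, its host H13 at 3.42 and 2.91 CPM, and its X-linked parent Mcts1 at 15.1 and 16.1 CPM, although Mcts1 came to 30.4 and 32.3 CPM when the length of its longest transcript was used. Zrsr1, the splicing factor retrogene, had 19.5 and 19.2 CPM, with an interval of 0.823 to 1.16. Its level per kilobase was 4.34 and 4.26 CPM, that of its parent Zrsr2 14.4 and 17.2 CPM, and that of its host Commd1 2.06 and 2.18 CPM. Per kilobase both retrogenes were thus above their host in both libraries, and Zrsr1 was below its parent. Peg13, a noncoding RNA inside Trappc9, had 49 and 70 counts, and was 1.49-fold higher in replicate 2 (interval 1.07 to 2.31). Nnat, the neuronatin gene inside Blcap, had 37 and 43 counts, and its interval included 1.

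**Figure D3:**
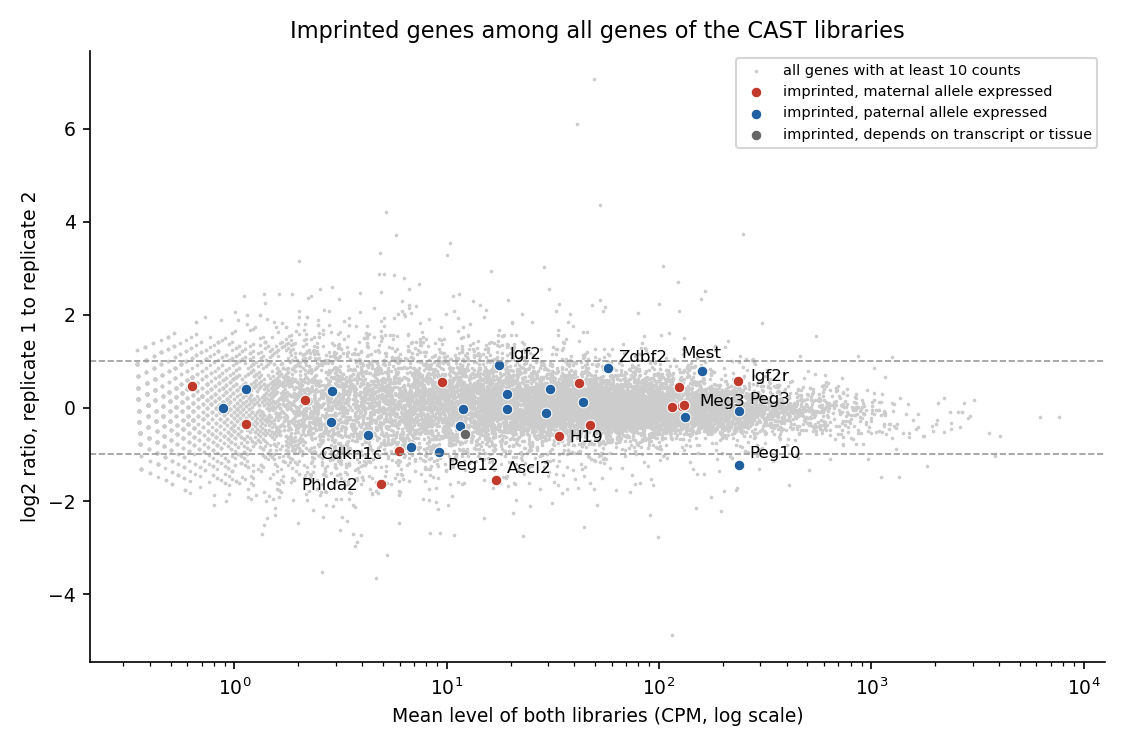
Log2 ratio of CAST replicate 1 to replicate 2 against mean CPM (log axis), with each of the 13824 genes tested as a grey point and the 36 imprinted genes in colour by expressed copy. The imprinted genes lie within the cloud of all genes, and Peg10, Ascl2 and Phlda2 lie below the dashed line of 2-fold.

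The fibroblast markers were mostly higher in replicate 1. Of the 18 that had 10 counts or more, 16 were higher in replicate 1, beside 50.4% of all genes tested, with a median log2 ratio of 0.71. At least 2-fold higher were 8, beside 4.98% of all genes, such as Col1a2 with 825 and 273 CPM. The pluripotency markers were also mostly higher in replicate 1, 7 of 10 with a median log2 ratio of 0.48, and Klf4 and Klf2 were at least 2-fold higher. Among them Pou5f1, with 547 and 731 CPM, and Dppa4, with 128 and 158 CPM, were higher in replicate 2, and Utf1 had a log2 ratio of -0.01. Igf2, Igf2r, Mest, Zdbf2, Grb10, Ddc, Rian, Mirg and Mcts2 were higher in the same library by more than counting error, 9 of the 36 imprinted genes tested, beside 28.6% of all genes, a share near the background. The fibroblast markers Pdgfrb and Dcn had log2 ratios of -0.15 and -0.03, and Sparc and Vim had 0.04 and 0.03. The part of feeder cells, of pluripotent state and of the 2 batches in these imprinted genes was not tested.

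Of 13 listed regulators that place, keep or read imprints, 12 had a row, and these 12 were detected in both libraries. Dnmt3b had no row and was not analysed here. Among those that hold methylation at imprints after fertilisation, the corepressor Trim28 had 2886 CPM in replicate 1 and 2579 CPM in replicate 2. Its DNA-binding partner Zfp57 had 351 and 336 CPM, a log2 ratio of 0.00. Zfp445, a further zinc finger partner, had 52.1 and 34.0 CPM. Per kilobase these genes stood at percentiles 99.8, 96.4 and 53.1 of all genes tested. Dppa3, which protects the maternal genome from demethylation, had 185 and 137 CPM. Maintenance of methylation was represented by Dnmt1 with 778 and 701 CPM and its partner Uhrf1 with 616 and 527 CPM. Ctcf, the insulator protein that binds the H19-Igf2 control region, had 223 and 201 CPM, and Smchd1, a chromatin silencer of some imprinted clusters, had 146 and 108 CPM. After TMM scaling and with the pseudocount, the ratios of these 8 genes were all under 1.5-fold, that of Zfp445 being 1.46-fold.

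Of the factors of new methylation and of its removal, Dnmt3a, the methyltransferase, had 136 and 143 CPM, while its cofactor Dnmt3l, which is required to set maternal imprints in the egg, had 72.0 CPM in replicate 1 and 322 CPM in replicate 2. Dnmt3l was 4.63-fold higher in replicate 2 and the only 1 of the 12 regulators (8.33%) at least 2-fold apart, a share near the 9.11% of all genes tested. Tet1, a methylcytosine oxidase, had 598 and 370 CPM, 1.55-fold higher in replicate 1. Tet2, of the same family, had 112 and 135 CPM. The libraries that differed in Peg10, Ascl2 and Phlda2 thus also differed in Dnmt3l and Tet1, and the part of these regulators was not tested.

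**Figure D4:**
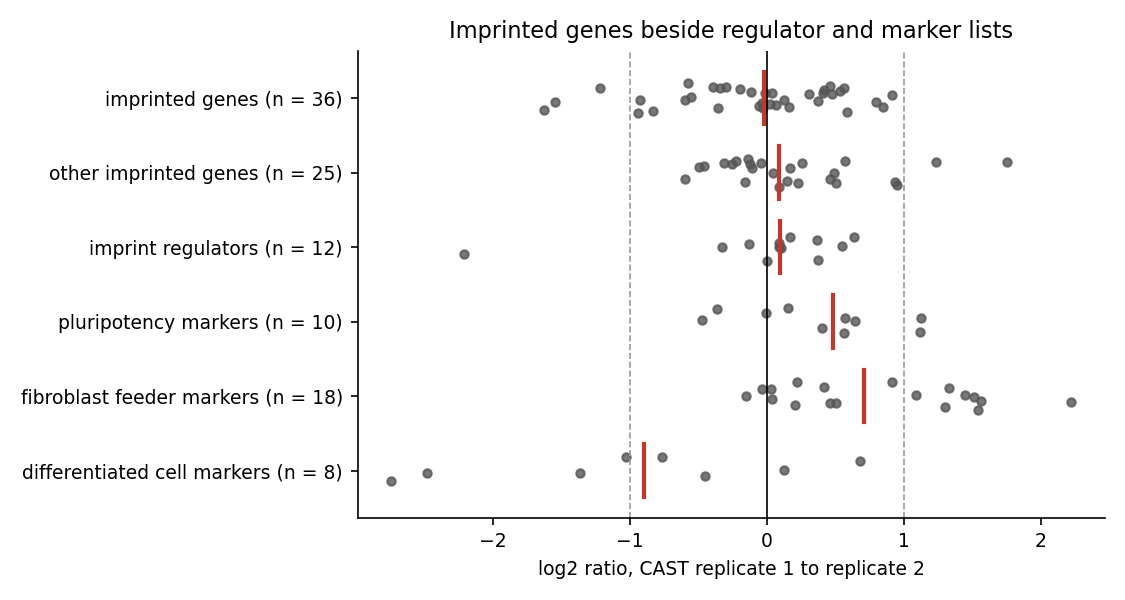
Log2 ratio of CAST replicate 1 to replicate 2 for each gene that had 10 counts or more (points, spread vertically only for legibility) of 6 gene lists, with the median of each list as a red bar and dashed lines at 2-fold. The median of the imprinted genes is -0.02, that of the fibroblast markers 0.71 and that of the markers of differentiated cells -0.90.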

How the data were processed

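Poly(A)-selected RNA of CAST/EiJ induced pluripotent stem cells was sequenced in 2 libraries. The authors deposited a table of raw read counts per Ensembl gene, without normalization. The labels' processing notes list TopHat2 2.1.1, SAMtools, HTSeq and GRCm38, whereas the paper describes mapping with STAR to the CAST/EiJ genome, with reads that map to several places discarded. Which of these made the table is not given in the sources used here, nor is the strand setting. The 7 other columns of values match no listed sample and were not used.

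Counts were divided by the library total (14460393 and 13728098) to give CPM, and by exon length in GENCODE M21 (GRCm38) to give CPM per kilobase. All 26808 identifiers had a symbol. TMM factors came from edgeR 4.0.16 in R 4.3.3, and 0.5 CPM was added. A gene needed 10 counts over both libraries (13824 did). Intervals (95%) were exact Clopper-Pearson bounds of the share of counts. The ratio calculation was tested on simulated data. Alternatives were library totals, DESeq2 1.42.0 size factors, other filters and pseudocounts, and each library left out. The remaining steps ran in scipy 1.17.1, pandas 2.3.3 and numpy 2.4.6, with plots by matplotlib 3.10.9, under Python 3.11.15.

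The members and lists were chosen with earlier results of these data known. All 40 members are named. Of further imprinted genes, the 5 highest in CPM and those at least 2-fold apart with a mean of at least 5 CPM are named, and all regulators. Markers and host or parent genes given with values were chosen after their values were seen.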

Additional observations from a re-analysis of the deposited data

How the results depend on the processing

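With 2 libraries of 1 group, leaving out either library leaves a single value. The number of imprinted genes detected in both libraries was 36, stayed at 36 with either library alone, and was 35 when at least 10 counts were required in each. The summed level ranged from 1905 to 1999 CPM with either library alone. The median log2 ratio lay between -0.03 and 0.03 and turned positive with library totals (0.03), which also moved the median of all genes to 0.06. Under library totals, DESeq2 size factors, 2 other filters and 2 other pseudocounts, 3 imprinted genes were at least 2-fold apart each time, and they were Peg10, Ascl2 and Phlda2 in each, while the share over all genes ran from 3.91% to 13.1%. With a pseudocount of 2 CPM the log2 ratio of Phlda2 was -1.22. With the length of the longest transcript in place of all exons, a choice made after seeing the data, 7 of 15 ratios between genes of a pair moved beyond the spread between libraries and the mean of 1 changed order. Mirg per kilobase was 1.04 times Dlk1 instead of 0.665 times, but this mean joins 1.39 in replicate 1 with 0.695 in replicate 2, where the order did not change. Snrpn was 1.06 times Ube3a instead of 2.14 times, with 0.994 in replicate 1, where the order turned, and 1.13 in replicate 2. Rian was 6.45 times Dlk1 instead of 3.48 times. Peg10 was then 22.7 times Sgce instead of 54.6 times, and Peg3 194 times Usp29 instead of 303 times (means of both libraries). Without Peg10, also chosen after seeing the data, the summed CPM of the paternally expressed genes in replicate 1 minus that in replicate 2 was 133.8 instead of -48.8. Without Igf2r and Rian that of the maternally expressed genes was -0.41 instead of 148. No paired analysis was possible because libraries of only 1 group were analysed, so no groups share replicate numbers. Depth limits Rtl1, Usp29, Asb4 and Slc22a18, which had at most 20 counts in each library.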

Other observations

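Of 38 further imprinted genes, 33 had a row, 24 exceeded 3 counts in both libraries and 25 had at least 10 counts in total, 4 were at 0 in both libraries, and their summed level was 1929 CPM in replicate 1 and 1685 CPM in replicate 2. The highest in CPM were Jade1, a PHD finger gene, with 513 and 330.5 CPM, the histone chaperone gene Nap1l4 with 254 and 265 CPM, the tetraspanin gene Cd81 with 202 and 241 CPM, the adaptor gene Gab1 with 215 and 194 CPM, and the cholesterol synthesis gene Dhcr7 with 192 and 220.0 CPM. Of the 25, 14 were higher in replicate 1 and 11 in replicate 2, with a median log2 ratio of 0.09. Over all genes tested 50.4% were higher in replicate 1 and the median was 0.00.

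At least 2-fold apart were 2 of the 25, both higher in replicate 1, beside 9.11% of all genes tested in either direction. Dio3, the deiodinase gene that inactivates thyroid hormone at the far end of the Dlk1-Dio3 locus, had 891 counts in replicate 1 and 236 in replicate 2, or 61.6 and 17.2 CPM, and was 3.37-fold higher in replicate 1. The other was Pon3, with 41 and 12 counts, named although its mean is under 5 CPM. Dio3 thus had a larger difference than any of the 5 listed genes of its locus, where Meg3 differed by a log2 ratio of 0.04 and Dlk1 by -0.39.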
